A study of Homo sapiens with 34 samples.

Results

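NALM6 and 697 are human acute lymphoblastic leukemia lines that the series lists as pre-B cells, and this account compares how the same etoposide dose changed their transcripts. It rests on every library of these lines, 11 of the 34 in the series, with 3 NALM6 controls, 3 NALM6 etoposide libraries, 3 controls of 697 and 2 etoposide libraries of 697. Controls were left untreated, and treated cells received 10 µM etoposide for 4 hours. Per gene, the log2 change with etoposide in NALM6 was compared with the log2 change in 697, and the difference between them was tested. The difference is given as NALM6 minus 697, so a positive value means a larger rise or a smaller fall in NALM6. The series also treated a mature B, a T and a pair of myeloid lines, which are not compared here. Each line is 1 established culture, and no label says whether replicates came from separate cultures, so a p-value here measures the spread among these libraries alone, and that spread may be technical.

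Etoposide traps topoisomerase II on cut DNA and leaves double-strand breaks. Such breaks activate the kinase ATM, which stabilises the transcription factor p53 and also signals to NF-kB. In pre-B cells, double-strand breaks also arise physiologically when the RAG recombinase cuts the immunoglobulin light chain loci, and the same kinase then adjusts RAG expression, pre-B receptor signalling and migration.

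Library totals, in M (1e+06 counts), ran from 11.1 to 34.2 M in NALM6 and from 14.03 to 23.3 M in 697. Genes with a count numbered 13917 to 14978 in NALM6 controls and 15908 to 16132 after etoposide. In 697 they numbered 14355 to 14738 in controls and 16408 to 17097 after etoposide. The file names place all controls of both lines in 1 sequencing pool and all their etoposide libraries in another, so within a line pool and treatment cannot be told apart, while each gap between the lines lies within 1 pool. Pre-B markers summed to 6070 to 6310 CPM (counts scaled to 1 M per library) in NALM6 controls and 5192 to 5298 CPM in 697 controls, and each of the 12 was detected. Among T cell markers, LCK was at 14.9 to 18.4 CPM in NALM6 controls and 33.7 to 36.1 CPM in 697 controls. CD247 was at 0.27 to 0.538 and 2.55 to 2.85 CPM, and the others were each at most 0.254 CPM in controls. Mature B markers summed to 133 to 139 CPM in NALM6 controls and 302 to 310 CPM in 697 controls. For NK cell markers the sums were 5.05 to 6.004 and 19.3 to 22.1 CPM. For myeloid markers they were 8.32 to 9.5 and 6.46 to 8.25 CPM. The summed erythroid markers never passed 0.816 CPM, with HBA1, HBA2 and HBB at 0. CD3D, at 0 in all 6 controls, had 0.0570 to 0.408 CPM in the etoposide libraries, whose pool also held the T cell line JURKAT. Of 2718 genes at 100 CPM or more in 697 controls, none was at 0 in NALM6 controls, and the 39 under 1% of the 697 level had a median of 0.252% of it. After etoposide the corresponding 19 genes had a median of 0.114%. The part that reads carried over between libraries of a pool have in such low values was not tested.

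Most of the response was shared, and its size differed for many genes. Across the 11616 tested genes with at least 1 CPM in both lines, the log2 changes correlated with a Pearson r of 0.852 and a Spearman rho of 0.834, and 83.2% had the same sign. These are across genes, which are not independent, and both lines share the pair of pools. Among all 14000 genes tested, 8195 (58.5%) were called in both lines in the same direction, at an edgeR adjusted p under 0.05. The median size of the log2 change was 0.67 in NALM6 and 0.67 in 697, and the median size of the difference between them was 0.37. CPM are relative to each library's total, so a change of total RNA per cell cannot be told apart from these changes.

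The difference itself was called for 5506 of 14000 genes, or 39.3%, with 2525 (18%) higher in NALM6 and 2981 (21.3%) lower. Which direction held more genes depended on the setting, since total counts alone gave 3099 higher and 2380 lower. Leaving out 697 etoposide replicate 1 gave 2579 and 2410, 697 control replicate 2 gave 2622 and 2452, and 697 control replicate 1 gave 2543 and 2520. A difference of at least 2-fold was called for 1324 genes (9.46%), 626 higher (4.47%) and 698 lower (4.99%). The etoposide minus control differences of every pair of libraries lay apart between the lines for 5862 genes (41.9%). Where both lines rose, 536 genes rose more in NALM6 and 758 more in 697, and where both fell, 907 fell more in NALM6 and 806 more in 697. Opposite directions were called for 545 genes (3.89%), 286 (2.04%) up in NALM6 and down in 697 and 259 (1.85%) the reverse, against 363 and 204 with total counts alone. Within NALM6, 5500 genes rose and 5235 fell, and within 697, 5465 rose and 5093 fell, but with upper quartile scaling these became 6627 and 4172 in NALM6 and 6496 and 4011 in 697. That scaling moved the median change of all genes from 0.03 to 0.22 in NALM6 and from 0.05 to 0.23 in 697, whereas the median difference between the lines stayed between -0.03 and 0.04 under the 4 scalings. A small change within a line is therefore stated relative to the scaling used, and differences between the lines depend less on it.

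**Figure D1:**
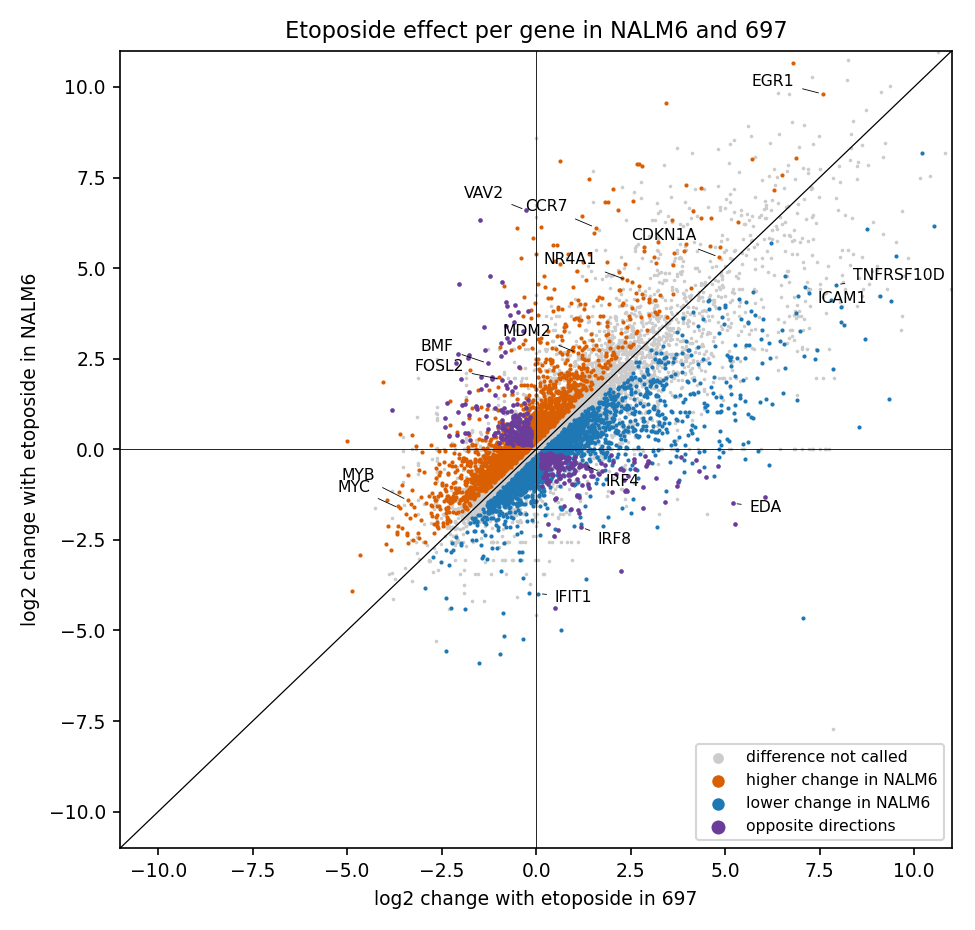
Log2 change with etoposide in 697 (x axis) against NALM6 (y axis), 1 point per tested gene, with the line of equal change drawn; 6 genes lie outside the axes. Colours mark genes whose difference was called higher or lower in NALM6 and genes called in opposite directions (545), and the points follow the diagonal with a Pearson r of 0.852 across expressed genes.

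The same differences can be read as the gap between the lines before and after the drug, each within 1 pool. NALM6 and 697 differed in controls for 9468 genes (67.6%) and after etoposide for 9876 genes (70.5%), and the median size of the gap was 0.48 and 0.52 on the log2 scale. Of the 5506 genes with a called difference in response, 1074 (19.5%) differed between the lines in controls and were not called after etoposide, and 1224 (22.2%) differed after etoposide and were not called in controls. A further 1341 (24.4%) kept a gap of the same direction that was smaller after etoposide, 1183 (21.5%) a larger one, and in 645 (11.7%) the higher line changed. Almost all were expressed in both lines, since 5181 had at least 1 CPM in a group of each.

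**Figure D2:**
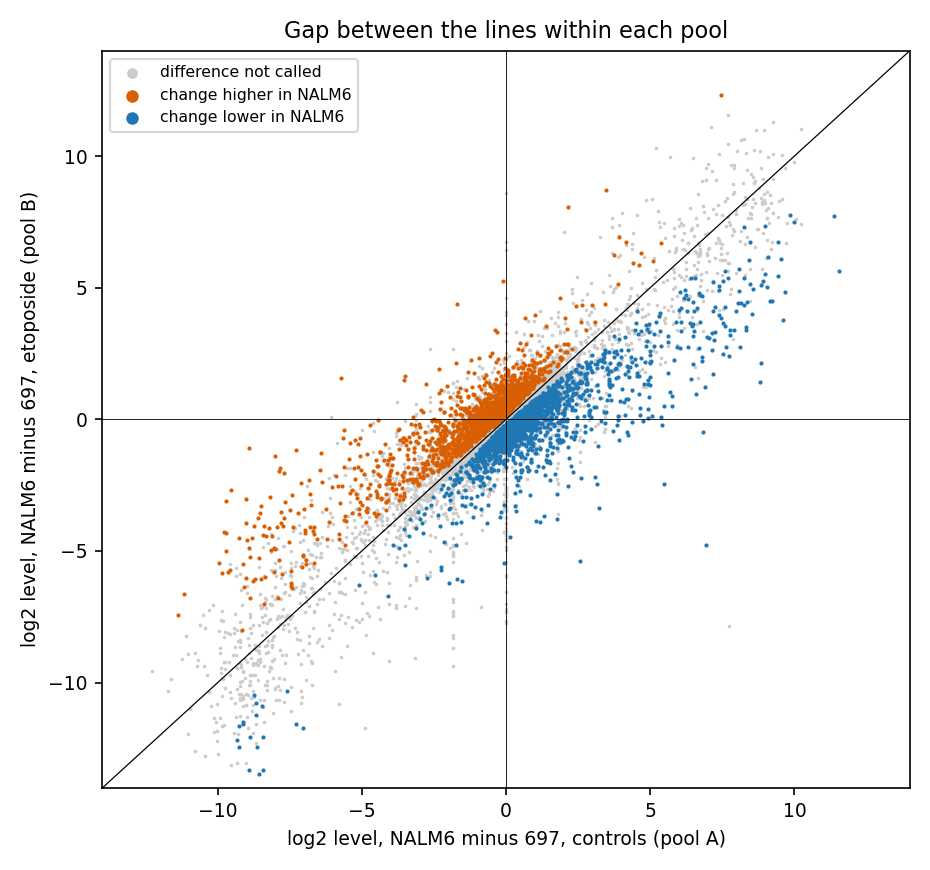
Log2 gap between NALM6 and 697 in controls (x axis) against the gap after etoposide (y axis), 1 point per tested gene, each axis within 1 pool. Genes above the diagonal changed more upward in NALM6 (2525 called) and genes below it less (2981 called).

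The p53 targets rose in both lines, with 37 of 38 called up in NALM6 and 38 in 697, against 39.3% and 39% of all genes. Their median log2 change was 3.09 in NALM6 and 3.04 in 697. The difference was called higher in NALM6 for 9 and lower for 14, against 18% and 21.3% of all genes. Its median was -0.10 against -0.03 over all genes tested (-0.22 with groups at 0 reads set to a floor of 3 counts). CDKN1A, the inhibitor of cyclin-dependent kinases that arrests the cycle, stood at 159, 163 and 156 CPM in the NALM6 controls and 6453, 6086 and 6349 CPM after etoposide. In 697 it was at 162, 158 and 166 CPM in the 697 controls and 4714 and 4583 CPM after etoposide. The lines began level and NALM6 ended higher in every library, with log2 changes of 5.30 in NALM6 and 4.84 in 697 and a difference of 0.46 ± 0.07 (SE, edgeR adjusted p = 8.38e-07).

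MDM2, the ubiquitin ligase that degrades p53, was the target with the largest called difference in favour of NALM6. Its level was 201, 199.8 and 216 CPM in the NALM6 controls and 1200.0, 1383 and 1302 CPM after etoposide. The 697 values were 953, 980.2 and 943 CPM in the 697 controls and 2221 and 1882 CPM after etoposide. The 697 controls stood well above the NALM6 controls. 697 rose by 1.10 and NALM6 by 2.65 on the log2 scale, a difference of 1.56 ± 0.08 (SE, edgeR adjusted p = 1.31e-15), and 697 still ended higher. TNFRSF10B, a death receptor for the ligand TRAIL, showed the other arrangement, with 41.1, 43.1 and 43.5 CPM in the NALM6 controls and 596, 598 and 604 CPM after etoposide. In 697 the values were 1.22, 1.46 and 1.04 CPM in the 697 controls and 65.4 and 60.8 CPM after etoposide. NALM6 was higher before and after, and the relative rise was larger in 697, at 5.69 against 3.81, a difference of -1.88 ± 0.14 (SE, edgeR adjusted p = 1.29e-13). The decoy receptor TNFRSF10D rose from 4.03 to 99.5 CPM in NALM6 and from 0.249 to 59.1 CPM in 697, a difference of -3.40 ± 0.43 (SE, edgeR adjusted p = 4.47e-06).

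Among other p53 targets, the antiproliferative gene BTG2 (-1.04 ± 0.09), the ribonucleotide reductase subunit RRM2B (-1.01 ± 0.10), the BH3-only gene PMAIP1 (-0.86 ± 0.13) and the apoptosome gene APAF1 (-0.74 ± 0.11) had lower differences in NALM6 (log2 ± SE, each called by edgeR). APAF1 rose in 697 by 0.70 and had a log2 change of -0.03 in NALM6 that was not called. The cytokine GDF15 had no read in any control of either line, so its rise was at least 181-fold in NALM6 and at least 350.2-fold in 697 against the 3-count floor over the group. After etoposide it stood at 9.19 ± 0.765 CPM (SD, n = 3) in NALM6 and 18.9 ± 0.545 CPM (SD, n = 2) in 697, a gap of -1.04 ± 0.16 (SE, edgeR adjusted p = 4.21e-07) on the log2 scale.

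Immediate-early genes, which are induced within minutes of a stimulus and many of which encode transcription factors, mostly rose in both lines. Of 30 tested, 27 rose in NALM6 and 26 in 697, against 39.3% and 39% of all genes. The difference was called higher in NALM6 for 14 and lower for 2, against 18% and 21.3% of all genes. Its median was 0.42 against -0.03 over all genes. NR4A1, an orphan nuclear receptor of this class, stood at 7.53, 8.56 and 11.4 CPM in the NALM6 controls and 226, 232 and 239 CPM after etoposide. The 697 libraries stood at 5.9, 7.14 and 7.35 CPM in the 697 controls and 34.1 and 38.5 CPM after etoposide. Controls were close, and treated NALM6 lay far above treated 697, with log2 changes of 4.67 in NALM6 and 2.41 in 697 and a difference of 2.26 ± 0.15 (SE, edgeR adjusted p = 1.05e-13). EGR1 rose by 9.81 and 7.58, a difference of 2.23 ± 0.19, FOS had 1.04 ± 0.26, JUN 0.87 ± 0.12, ATF3 1.17 ± 0.10 and IER2 1.17 ± 0.09 (log2 ± SE, each called by edgeR).

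FOSL2, a FOS family member, moved in opposite directions. It was at 9.5, 10.3 and 10 CPM in the NALM6 controls and 39.8, 39.5 and 34.5 CPM after etoposide. Its levels in 697 were 112, 117 and 123 CPM in the 697 controls and 60.8 and 64.1 CPM after etoposide. It rose by 1.92 in NALM6 and fell in 697 with a log2 change of -0.91, a difference of 2.83 ± 0.11 (SE, edgeR adjusted p = 5.77e-22), and the 697 libraries stayed above NALM6 throughout. KLF6 had changes of 1.13 in NALM6 and -0.27 in 697, and its change in 697 was not called with upper quartile or total-count scaling, while the difference of 1.40 ± 0.10 (SE, edgeR adjusted p = 4.06e-14) was called under each scaling. EGR3 had 1 read in NALM6 controls against 1909 after etoposide, a ratio of 2281-fold, with a 95% counting interval of 409 to 90136. KLF2 was the exception at 2-fold or more, with -2.26 ± 0.58, on 7 reads in 697 controls.

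MAP kinase feedback genes, which are read out by and restrain ERK signalling, had 5 of 18 called higher in NALM6 and 3 lower, against 18% and 21.3% of all genes, with a median of 0.19 that lay between 0.01 and 0.30 over the alternatives. ETV5, an ETS factor that ERK signalling induces, was at 15, 17.7 and 19.2 CPM in the NALM6 controls and 21.1, 22.6 and 23.5 CPM after etoposide. Libraries of 697 had 374, 384 and 378 CPM in the 697 controls and 77.3 and 76.3 CPM after etoposide. Its changes were 0.36 in NALM6 and -2.30 in 697, a difference of 2.66 ± 0.10 (SE, edgeR adjusted p = 1.15e-22), and the treated 697 libraries remained above NALM6. The phosphatase gene DUSP6 had a change of -0.01 in NALM6 that was not called and fell in 697, with -1.13, a difference of 1.11 ± 0.09 (SE, edgeR adjusted p = 1.43e-12). The inhibitors SPRY2 (1.40 ± 0.11) and SPRY4 (2.87 ± 0.24) had the same direction of difference, while DUSP4 rose more in 697 (-1.22 ± 0.18).

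**Figure D3:**
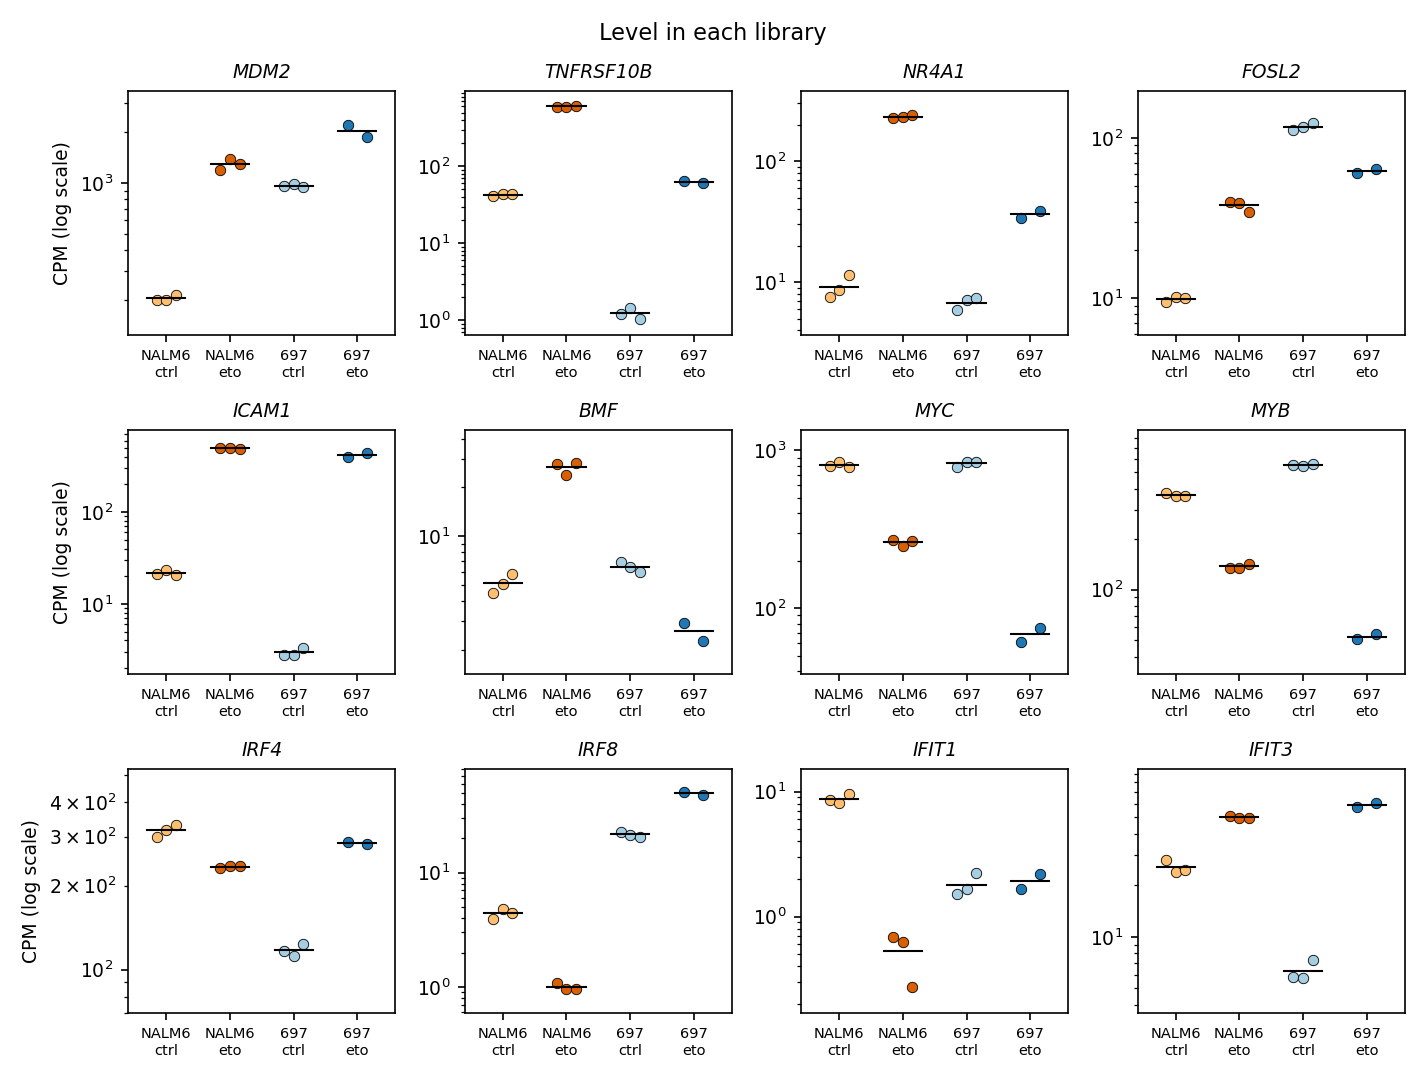
CPM on a log scale in every library for 12 genes named in the text, with points for libraries and bars for group means of NALM6 and 697 controls and etoposide libraries (3, 3, 3 and 2). MYC controls are level and treated 697 lies below treated NALM6, whereas FOSL2, BMF, IRF4 and IRF8 move in opposite directions.

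NF-kB genes rose in both lines, 20 of 21 called in NALM6 and 21 in 697, against 39.3% and 39% of all genes. The difference was called higher in NALM6 for 5 and lower for 7, against 18% and 21.3% of all genes. Its median was -0.08. BCL3, a nuclear IkB-like co-activator, had the largest called difference, 2.03 ± 0.24 (SE, edgeR adjusted p = 2.4e-08), from 1.23 to 87.6 CPM in NALM6 and from 3.18 to 64.9 CPM in 697. The subunits RELB (0.95 ± 0.22) and NFKB1 (0.77 ± 0.07) also rose more in NALM6, and REL (-0.79 ± 0.16) more in 697. The inhibitors NFKBIA (-0.50 ± 0.08) and NFKBIE (-0.52 ± 0.13) and the deubiquitinase CYLD (-1.55 ± 0.11) rose more in 697.

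ICAM1, the adhesion molecule that binds LFA-1 and a known NF-kB target, rose in both lines from different starting points. It was at 21.4, 23.3 and 20.5 CPM in the NALM6 controls and 494, 492 and 491 CPM after etoposide. The corresponding values for 697 were 2.8, 2.78 and 3.35 CPM in the 697 controls and 394 and 435 CPM after etoposide. The log2 changes were 4.49 in NALM6 and 7.11 in 697, a difference of -2.62 ± 0.12 (SE, edgeR adjusted p = 1.02e-20), and the gap between the lines narrowed from 2.87 in controls to 0.25 after etoposide. Its RefSeq promoter (GRCh38.p14, chr19:10270870-10271169 on the plus strand, 250 bases before the start and 50 from it on) is printed because it holds the NF-kB letters GGANNTTCC, in capitals, which were searched on both strands and occur in 4.56% of 35116 promoters of this length.
ICAM1: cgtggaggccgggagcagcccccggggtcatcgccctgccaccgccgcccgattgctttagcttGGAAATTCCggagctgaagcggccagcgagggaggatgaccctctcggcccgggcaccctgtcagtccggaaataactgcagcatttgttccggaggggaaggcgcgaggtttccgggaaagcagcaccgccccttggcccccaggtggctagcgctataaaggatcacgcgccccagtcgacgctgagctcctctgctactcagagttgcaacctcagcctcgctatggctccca
Those letters were found in 6 of the 19 NF-kB list promoters that RefSeq supplied, namely of NFKB1, REL, NFKBIA, NFKBIZ, TNFAIP3 and TRAF1, of which 2 were among the 4 called higher in NALM6 and 3 among the 6 called lower. A match describes the letters and not a bound site.

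Among activation genes, CCR7, the chemokine receptor that guides lymphocytes to lymph nodes, was at 0.0896, 0.24 and 0.467 CPM in the NALM6 controls and 20.3, 18.8 and 18.4 CPM after etoposide. 697 gave 23.2, 23.1 and 26.9 CPM in the 697 controls and 71.2 and 74.5 CPM after etoposide. NALM6 was near 0 in controls and 697 was not, and the difference was 4.55 ± 0.26 (SE, edgeR adjusted p = 3.48e-17). SLAMF1, a co-stimulatory receptor, rose in NALM6 by 3.85 and had -0.12 in 697, a difference of 3.98 ± 0.16 (SE, edgeR adjusted p = 1.42e-21). TNFRSF1B, the second TNF receptor, had 2 reads in 697 controls and 67 after etoposide, a ratio of 53.1-fold, with a 95% counting interval of 14.1 to 447, and in NALM6 its change of 0.15 was not called.

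Several inducible immune genes were silent or nearly so in controls of 1 or both lines, but treated levels differed within the etoposide pool. Where both controls were silent, the fitted difference is no bound and was not called. EBI3, a subunit of IL-27 and IL-35, had no control read in either line and reached 5.26, 4.79 and 3.6 CPM in NALM6 and 55.7 and 66.3 CPM in 697, a gap of -3.73 ± 0.14 (SE, edgeR adjusted p = 2.37e-22). The co-stimulatory ligand CD80, also without control reads, reached 3.03, 3.76 and 3.33 CPM and 26.8 and 25.4 CPM, a gap of -2.95 ± 0.17 (SE, edgeR adjusted p = 3.74e-17). 697 was higher in every treated library for both. The integrin subunit ITGAM, at 1 and 2 control reads, had a treated gap of -3.48 ± 0.14 (SE, edgeR adjusted p = 3.86e-20). TNFRSF9, the receptor 4-1BB, had a treated gap of -4.30 ± 0.16 (SE, edgeR adjusted p = 1.57e-23) in the same direction. It was silent in NALM6 controls alone and had 119 reads in treated NALM6. CD69, an early activation antigen, lay the other way, at 162, 189.9 and 172 CPM in treated NALM6 and 2.17 and 2.27 CPM in treated 697. Since 697 controls had no CD69 read, its rise there was at least 41.2-fold. NALM6 controls were not silent, with a mean of 0.562 CPM, and the log2 change there was 8.32. The cytokine list as a whole had 2 of 26 higher in NALM6 and 6 lower, against 18% and 21.3% of all genes, and the alternatives gave 1 to 4 higher and 3 to 10 lower. The activation list had 9 of 29 higher and 8 lower, beside the same 18% and 21.3% of all genes.

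B-lineage transcription factors split by gene. Of 39 tested with B cell receptor signalling genes, 14 were called higher in NALM6, 12 lower and 13 not. Over all genes 18% were called higher and 21.3% lower. The list median was -0.09. MYB, a factor that immature B cells require, was at 375, 363 and 359 CPM in the NALM6 controls and 135, 135 and 143 CPM after etoposide. In 697 it was at 549, 548 and 561 CPM in the 697 controls and 50.6 and 54.6 CPM after etoposide. It fell in both, by 1.41 in NALM6 and 3.40 in 697, a difference of 1.99 ± 0.08 (SE, edgeR adjusted p = 1.71e-22), and the order of the lines reversed. MEF2C (2.14 ± 0.08), BACH2 (1.39 ± 0.10), IKZF2 (1.05 ± 0.13) and RUNX1 (0.94 ± 0.09) also fell more in 697 (log2 ± SE, each called by edgeR).

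IRF4 and IRF8, paired interferon regulatory factors of pre-B differentiation, fell in NALM6 and rose in 697. IRF4 was at 299.8, 318 and 329 CPM in the NALM6 controls and 231, 235 and 234 CPM after etoposide. The 697 libraries stood at 116, 112 and 123 CPM in the 697 controls and 286 and 283 CPM after etoposide. The changes were -0.43 in NALM6 and 1.28 in 697, a difference of -1.71 ± 0.07 (SE, edgeR adjusted p = 5.44e-21), and 697 moved from below NALM6 to above it. IRF8 was at 3.94, 4.78 and 4.47 CPM in the NALM6 controls and 1.09, 0.969 and 0.952 CPM after etoposide. Its levels in 697 were 22.8, 21.2 and 20.7 CPM in the 697 controls and 50.9 and 47.9 CPM after etoposide. Here 697 was higher throughout, and the difference was -3.35 ± 0.22 (SE, edgeR adjusted p = 1.75e-15). SPIB rose in 697 by 1.54 and had 0.01 in NALM6, a difference of -1.52 ± 0.12 (SE, edgeR adjusted p = 2.15e-13). ID2, an inhibitor of E proteins, had -2.86 ± 0.16, from 2.87 to 25.6 CPM in 697 and from 46.3 to 56.9 CPM in NALM6. EBF1, which specifies the lineage, fell in both, with -3.59 in NALM6 and -3.72 in 697 and a difference of 0.13 (95% interval -0.06 to 0.33), which was called without 697 etoposide replicate 1 (edgeR adjusted p = 0.0329).

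Most pre-B receptor and V(D)J genes fell, 23 of 28 in NALM6 and 24 in 697, against 37.4% and 36.4% of all genes, while 3 rose in NALM6 and 1 in 697. The difference was called higher in NALM6 for 12 and lower for 7, against 18% and 21.3% of all genes, with a median of 0.20. RAG1, the recombinase that makes physiological breaks, was at 603, 625 and 650.3 CPM in the NALM6 controls and 47.9, 36.6 and 39.6 CPM after etoposide. Libraries of 697 had 232, 233 and 236 CPM in the 697 controls and 8.86 and 6.8 CPM after etoposide. The fall was larger in 697, with -3.92 in NALM6 and -4.86 in 697 and a difference of 0.94 ± 0.13 (SE, edgeR adjusted p = 3.15e-06). RAG2 (1.10 ± 0.10), the surrogate light chain gene VPREB1 (1.41 ± 0.09), the surface peptidase gene MME (1.26 ± 0.09) and the adaptor BLNK (0.83 ± 0.08) had the same direction. VPREB3 (-0.66 ± 0.08) and the end-joining ligase LIG4 (-1.21 ± 0.12) fell more in NALM6.

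MYC began level and ended apart. It was at 801, 842 and 787 CPM in the NALM6 controls and 269, 249.6 and 265 CPM after etoposide. The corresponding values for 697 were 791, 848 and 842 CPM in the 697 controls and 61.5 and 74.9 CPM after etoposide. The log2 changes were -1.63 in NALM6 and -3.61 in 697, a difference of 1.98 ± 0.08 (SE, edgeR adjusted p = 2.64e-20), so treated 697 held the lowest values. Ribosome biogenesis and other MYC-linked genes had 4 of 34 higher in NALM6 and 8 lower, against 18% and 21.3% of all genes, with a median of 0.01. Total counts alone gave 11 higher and 6 lower, leaving out 697 etoposide replicate 2 gave 6 and 4, and leaving out 697 control replicate 2 gave 7 and 7. The nucleolar genes FBL (-0.46 ± 0.08) and NOP58 (-0.51 ± 0.09) were lower in NALM6.

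Cytosolic ribosomal protein genes were called lower in NALM6 for 37 of 39 and higher for none, against 21.3% and 18% of all genes. The list median was -0.38 against -0.03 over all genes, and 32 to 37 were lower over all alternatives. Of the 39, 35 were called up in 697, against 39% of all genes. In NALM6 21 rose and 11 fell, against 39.3% and 37.4% of all genes. That NALM6 split changed to 27 and 4 with upper quartile scaling. RPL23 was at 1103, 1094 and 1036 CPM in the NALM6 controls and 1022, 962 and 987 CPM after etoposide. 697 gave 1343, 1413 and 1367 CPM in the 697 controls and 1727 and 1852 CPM after etoposide, and the difference was -0.50 ± 0.07 (SE, edgeR adjusted p = 1.91e-07). The share of all counts was taken over ribosomal protein symbols, a wider set than these 39 that also holds paralogs such as RPS27L. It was 5.997 to 6.26% in NALM6 controls and 7.38 to 7.71% after etoposide, and 7.77 to 7.89% and 11.5 to 11.9% in 697. RPS18, called lower among the 39, rests on 759 and 5 control reads of a gene with near-identical copies, so its value is uncertain.

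G2/M genes fell in both lines, 37 of 37 in each (36 in NALM6 with upper quartile or total-count scaling), against 37.4% and 36.4% of all genes. Their medians were -1.497 in NALM6 and -1.67 in 697. Differences were called higher for 10 and lower for 7, against 18% and 21.3% of all genes. The mitotic kinase PLK1 (-0.88 ± 0.11) and cyclin B1, CCNB1 (-0.60 ± 0.11), fell more in NALM6, and the checkpoint gene BUB1B (0.99 ± 0.09) more in 697. AURKA and DLGAP5 were not called, with differences of 0.01 (95% interval -0.25 to 0.27) and -0.11 (-0.34 to 0.12).

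G1/S and replication genes under E2F control were called higher in NALM6 for 28 of 36 and lower for 2, against 18% and 21.3% of all genes. The list median was 0.52 against -0.03 over all genes. The median change of the list was -0.45 in NALM6 and -0.89 in 697. E2F8, an atypical repressor E2F, was at 79.5, 77.2 and 79 CPM in the NALM6 controls and 134, 131 and 138 CPM after etoposide. In 697 it was at 81.3, 83.9 and 84.3 CPM in the 697 controls and 54.5 and 62.8 CPM after etoposide. It rose in NALM6 and fell in 697, with 0.77 in NALM6 and -0.51 in 697 and a difference of 1.28 ± 0.09 (SE, edgeR adjusted p = 1.73e-14). The licensing factor CDT1 (0.85 ± 0.10) and the helicase component CDC45 (0.77 ± 0.08) were likewise called up in NALM6 and down in 697. The polymerase gene POLA1 fell in both and more in 697 (0.74 ± 0.09).

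Double-strand break repair and checkpoint genes had 23 of 37 higher in NALM6 and none lower, against 18% and 21.3% of all genes. The list median was 0.29 against -0.03 over all genes. LIG4, a repair gene called lower, is counted with the V(D)J genes and not here. By other settings 19 to 26 were higher and at most 1 lower. WEE1, the kinase that holds CDK1 inactive, was at 91.5, 91.6 and 92.6 CPM in the NALM6 controls and 92.9, 97.3 and 97.7 CPM after etoposide. The 697 libraries stood at 117, 114 and 112 CPM in the 697 controls and 61.7 and 55.5 CPM after etoposide. Its change in NALM6, 0.06, was not called, and it fell in 697, a difference of 1.02 ± 0.09 (SE, edgeR adjusted p = 3.25e-12). H2AFX, the histone variant phosphorylated at breaks, had 0.79 ± 0.08, BRCA2 0.76 ± 0.13, BRCA1 0.67 ± 0.09 and BARD1 0.98 ± 0.12. Of the drug's targets, TOP2B fell by 1.71 in NALM6 and 2.36 in 697 (0.65 ± 0.07), and TOP2A by 1.57 and 1.90 (0.34 ± 0.07). TDP2, which removes trapped topoisomerase II from DNA ends, fell more in NALM6 (-0.34 ± 0.09).

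BCL2 family genes had 3 of 14 higher in NALM6 and 2 lower, against 18% and 21.3% of all genes, and 2 differed at least 2-fold, against 9.46%. BMF, a BH3-only gene that promotes apoptosis, was at 4.48, 5.05 and 5.81 CPM in the NALM6 controls and 27.8, 23.8 and 28.4 CPM after etoposide. Its levels in 697 were 6.92, 6.42 and 6.03 CPM in the 697 controls and 2.91 and 2.27 CPM after etoposide. Controls were close, and the lines parted in opposite directions, with 2.37 in NALM6 and -1.28 in 697 and a difference of 3.66 ± 0.23 (SE, edgeR adjusted p = 4.27e-16). BIK, another BH3-only gene, rose more in 697, from 0.224 to 5.49 CPM against 6.58 to 13.7 CPM in NALM6 (-3.47 ± 0.36). BCL2 itself fell in both and more in 697 (0.96 ± 0.09). BBC3, the p53 target PUMA, rose in both, with 5.29 in NALM6 and 5.12 in 697 and a difference of 0.17 (95% interval -0.07 to 0.41). Without 697 etoposide replicate 1 that difference was called (edgeR adjusted p = 0.0217).

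Interferon-stimulated genes, antiviral effectors and sensors, were called lower in NALM6 for 20 of 35 and higher for 1. Over all genes 21.3% were called lower and 18% higher. The list median was -0.47 against -0.03 over all genes. In NALM6 11 of the list rose and 19 fell, against 39.3% and 37.4% of all genes. In 697 16 rose and 12 fell, against 39% and 36.4% of all genes. Promoters of IFIT1 and IFIT3, neighbouring genes of antiviral RNA-binding proteins that differed in their response, are printed from RefSeq (GRCh38.p14, chr10:89392373-89392672 on the plus strand and chr10:89327747-89328046 on the plus strand), with matches to the interferon-stimulated response element, GAAA and GAAA with any 2 bases between them, on either strand in capitals.
IFIT1: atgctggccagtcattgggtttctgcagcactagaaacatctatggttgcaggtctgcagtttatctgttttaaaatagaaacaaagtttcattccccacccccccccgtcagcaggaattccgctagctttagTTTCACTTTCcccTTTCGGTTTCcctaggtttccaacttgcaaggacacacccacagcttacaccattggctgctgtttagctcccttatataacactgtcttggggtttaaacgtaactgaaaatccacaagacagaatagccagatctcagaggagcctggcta
IFIT3: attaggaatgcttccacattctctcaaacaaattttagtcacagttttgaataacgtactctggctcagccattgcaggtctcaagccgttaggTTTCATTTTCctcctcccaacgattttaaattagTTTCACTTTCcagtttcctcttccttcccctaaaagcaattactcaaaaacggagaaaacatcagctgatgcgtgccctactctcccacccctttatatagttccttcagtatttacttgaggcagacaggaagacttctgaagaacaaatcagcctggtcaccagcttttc
Each promoter holds 2 matches, in reverse orientation. The letters occur in 3.57% of the 35116 promoters and in 17 of the 27 list promoters that RefSeq supplied, with 11 of the 16 called lower in NALM6 and 6 of the 10 not called. IFIT1 was at 8.51, 8.02 and 9.55 CPM in the NALM6 controls and 0.686, 0.627 and 0.272 CPM after etoposide. Libraries of 697 had 1.53, 1.65 and 2.22 CPM in the 697 controls and 1.66 and 2.19 CPM after etoposide. It fell in NALM6 and its change in 697 was not called, with -3.98 in NALM6 and 0.06 in 697 and a difference of -4.04 ± 0.42 (SE, edgeR adjusted p = 4.09e-10). IFIT3 was at 28.3, 23.9 and 24.5 CPM in the NALM6 controls and 50.6, 49.5 and 49.5 CPM after etoposide. The corresponding values for 697 were 5.85, 5.75 and 7.35 CPM in the 697 controls and 57.5 and 60.3 CPM after etoposide. It rose in both and more in 697, a difference of -2.23 ± 0.13 (SE, edgeR adjusted p = 1.65e-16), so genes with the same letters in their promoters had unlike directions in NALM6. The factor gene IRF7 rose more in 697 (-1.25 ± 0.12), as did the RNA sensors IFIH1 (-0.91 ± 0.17) and DDX58 (-1.20 ± 0.14), the last with -0.10 in NALM6, which was not called.

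MHC genes had 4 of 15 higher in NALM6 and 2 lower, against 18% and 21.3% of all genes. The median of 0.25 became -0.34 with groups at 0 set to the floor. It was -0.12 without 697 etoposide replicate 1, -0.07 without NALM6 etoposide replicate 3 and -0.01 without 697 control replicate 1. Because HLA alleles differ from the reference, how reads of these genes were counted is uncertain. The transactivator gene CIITA rose more in 697 (-0.71 ± 0.08) and NLRC5 was higher in NALM6 (0.90 ± 0.09).

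Integrated stress response genes had 7 of 21 higher and 6 lower, against 18% and 21.3% of all genes, and 3 to 8 higher and 5 to 7 lower over the alternatives, with TRIB3, a pseudokinase, rising more in 697 (-0.85 ± 0.13) and DDIT3, the factor CHOP, more in NALM6 (0.55 ± 0.10). Chaperone and unfolded protein genes had 7 of 21 higher and 8 lower, beside the same 18% and 21.3% of all genes. Cytosolic chaperones HSP90AA1 (-0.83 ± 0.08), HSPA8 (-0.78 ± 0.08) and DNAJB1 (-0.58 ± 0.09) were lower in NALM6, and the endoplasmic reticulum genes SDF2L1 (1.23 ± 0.13), CRELD2 (0.58 ± 0.10) and EDEM1 (1.90 ± 0.07) higher. EDEM1 was at 199, 196 and 205 CPM in the NALM6 controls and 187, 172 and 187 CPM after etoposide. 697 gave 890.2, 892 and 876 CPM in the 697 controls and 227 and 206 CPM after etoposide and so stood far above NALM6 in controls and close to it after etoposide.

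FOXO-linked genes had 4 of 18 higher and 5 lower, shares near the 18% and 21.3% of all genes. TXNIP, a thioredoxin inhibitor, rose more in 697 (-1.36 ± 0.09), as did CITED2 (-1.23 ± 0.12). Histone cluster genes, whose transcripts mostly lack poly(A) tails, had 0 of 29 higher and 6 lower, against 18% and 21.3% of all genes. The latter share was near that of all genes, and 3 to 8 were lower over the alternatives. Their median of -0.76 was the lowest of the 21 lists, and lay between -0.94 and -0.62 over the alternatives. All 29 were called up in 697 and 17 in NALM6, against 39% and 39.3% of all genes. Near-identical copies make single members uncertain. HIST1H2BK had -0.63 ± 0.14, and HIST1H3D -3.06 ± 0.77 on 13 reads in NALM6 controls.

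**Figure D4:**
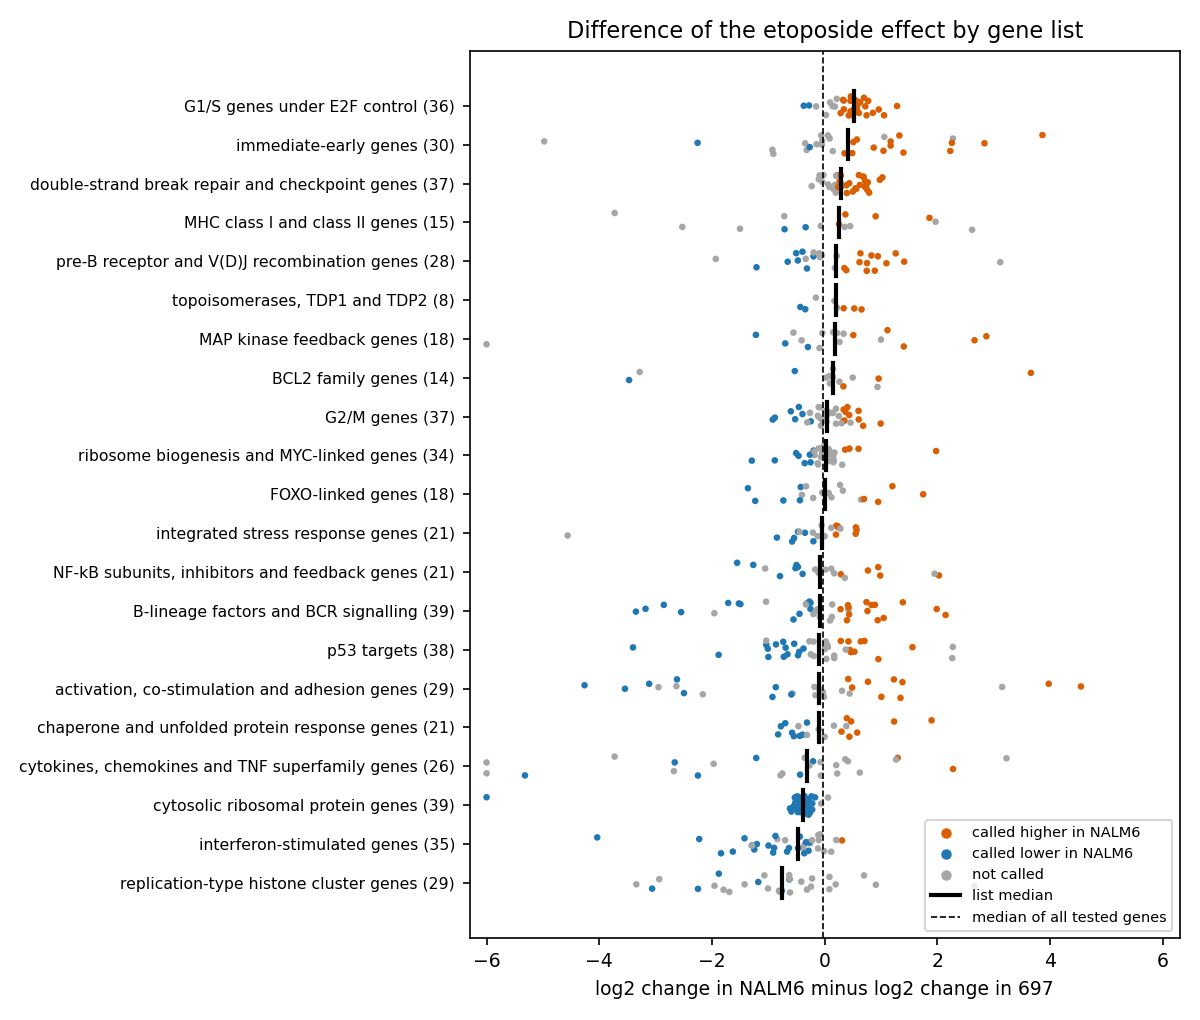
Difference of the log2 change (NALM6 minus 697) for each tested member of 21 gene lists, with list medians as bars, the median of all genes (-0.03) dashed, and the number tested in brackets. Values beyond 6 are drawn at 6 (4 members). G1/S genes lie to the right (median 0.52) and ribosomal protein genes in a narrow band to the left (-0.38). Histone cluster genes have the lowest median (-0.76), with 6 of 29 called.

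The largest differences among genes passing the naming rule belonged mainly to genes almost silent in controls of 1 line. The 12 highest were VAV2, SDK1, SLC12A7, IGSF10, CHST3, PGPEP1, PODXL2, GALC, CCR7, COL4A1, LILRB4 and CCDC149, and in 9 of them the NALM6 controls were under 1% of the 697 level. SLC12A7, a potassium-chloride cotransporter, was at 0.538, 0.391 and 0.334 CPM in the NALM6 controls and 33.7, 38 and 35.4 CPM after etoposide. In 697 it was at 119, 117 and 121 CPM in the 697 controls and 275 and 281 CPM after etoposide. NALM6 approached the 697 controls without reaching them, a difference of 5.22 ± 0.17 (SE, edgeR adjusted p = 1.94e-24). VAV2, a guanine nucleotide exchange factor, had 6 reads in NALM6 controls and 518 after etoposide, while 697 went from 80.9 to 67.4 CPM. IGSF10 rose from 1 read to 275 in NALM6, a ratio of 329-fold, with a 95% counting interval of 58.5 to 13024.

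The 12 lowest were EDA, PLEKHG1, DDO, TNFRSF1B, CPM, ITM2A, CHST6, SCRN1, SCML1, SLC46A1, CDC42BPA and GCH1, and in 8 of them the 697 controls were under 1% of the NALM6 level. The order is by the fitted value, which is no bound for the 6 of these and the 4 of the highest with at most 3 reads in a group. GCH1, the first enzyme of tetrahydrobiopterin synthesis, was at 65.5, 63.3 and 67.3 CPM in the NALM6 controls and 62, 67.4 and 60.4 CPM after etoposide. The 697 libraries stood at 0.254, 0.331 and 0.236 CPM in the 697 controls and 6.74 and 4.83 CPM after etoposide. Its change in NALM6 was not called, and it rose in 697 to values still below NALM6, a difference of -4.48 ± 0.27 (SE, edgeR adjusted p = 1.97e-16). DDO, D-aspartate oxidase, rose from 0.153 to 19.8 CPM in 697 and from 0.577 to 1.44 CPM in NALM6 (-5.53 ± 0.55). PLEKHG1 and CHST6 had no read in 697 controls, and rose at least 53.9-fold and at least 69.2-fold there. Leaving out the 1054 genes under 1% of the other line's level gave 5328 calls, 2469 higher and 2859 lower.

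Genes in opposite directions, by the largest smaller change, included NAV2, KCNJ11, BMF, NID2, EBF3, DOCK10 and CAMK2D up in NALM6 and down in 697. DOCK10, an exchange factor for Cdc42 and Rac, was at 63.6, 73.8 and 76.7 CPM in the NALM6 controls and 159, 171 and 159.6 CPM after etoposide. Its levels in 697 were 275, 282 and 267 CPM in the 697 controls and 92.1 and 91.4 CPM after etoposide. The order of the lines reversed, with 1.19 in NALM6 and -1.58 in 697 and a difference of 2.77 ± 0.09 (SE, edgeR adjusted p = 5.88e-25). NID2 and CAMK2D were under 1% of the 697 level in NALM6 controls.

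The reverse set included EDA, IRF8, TUBA4A, CDKN1C, RASD1, MOB3B and SPARC. RASD1, a Ras-like protein induced by dexamethasone, was at 68.3, 76.9 and 65.6 CPM in the NALM6 controls and 20.9, 24.2 and 20.9 CPM after etoposide. Libraries of 697 had 2.08, 1.92 and 2.59 CPM in the 697 controls and 5.59 and 3.8 CPM after etoposide. NALM6 was higher throughout and the gap narrowed, a difference of -2.80 ± 0.21 (SE, edgeR adjusted p = 1.82e-13). CDKN1C, the inhibitor p57 and a relative of CDKN1A, fell in NALM6 by 1.75 and rose in 697 by 1.13 at 0.653 to 2.15 CPM, a difference of -2.88 ± 0.53 (SE, edgeR adjusted p = 2.9e-05).

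Genes expressed in 1 line only were named by a separate rule. Those genes under 0.1 CPM in the other line were HLA-DRB3, KLHL33, RCAN3, OCIAD2, FAM89A, PHACTR2, CNTNAP2, CCDC68, SOX6, TTLL6 and ZNF208, and each lost its call in at least 1 alternative. CCDC68 had 0 reads in 697 controls and 162 after etoposide, a rise of at least 85.6-fold. In NALM6 it had 2 and 5 reads.

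Large responses that matched closely were found for 62 of the 1249 genes with a log2 change of at least 2 in both lines in the same direction, defined by a 95% interval of the difference within -0.5 to 0.5. Of the 62, 48 rose and 14 fell, and 7 had at most 3 reads in a group, where the fitted change is uncertain, which leaves 55. TNFSF9, the ligand of 4-1BB, had 5.53 in NALM6 and 5.61 in 697 and a difference of -0.07 (95% interval -0.49 to 0.34), whereas its receptor gene TNFRSF9, above, ended far apart.

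The difference was also described by gene span, the distance from the first to the last annotated base. Spans from GENCODE v29 were found for 12387 of 14000 genes (88.5%). Genes over 300 kb had a median log2 change of -0.19 in NALM6 and -0.47 in 697, and genes under 10 kb 0.36 and 0.40. The share called higher in NALM6 went from 14.6% under 10 kb to 25.2% over 300 kb, and the share called lower from 20.6 to 15.3%. With at least 1 CPM in each line, the medians over 300 kb were -0.48 and -0.63.

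**Figure D5:**
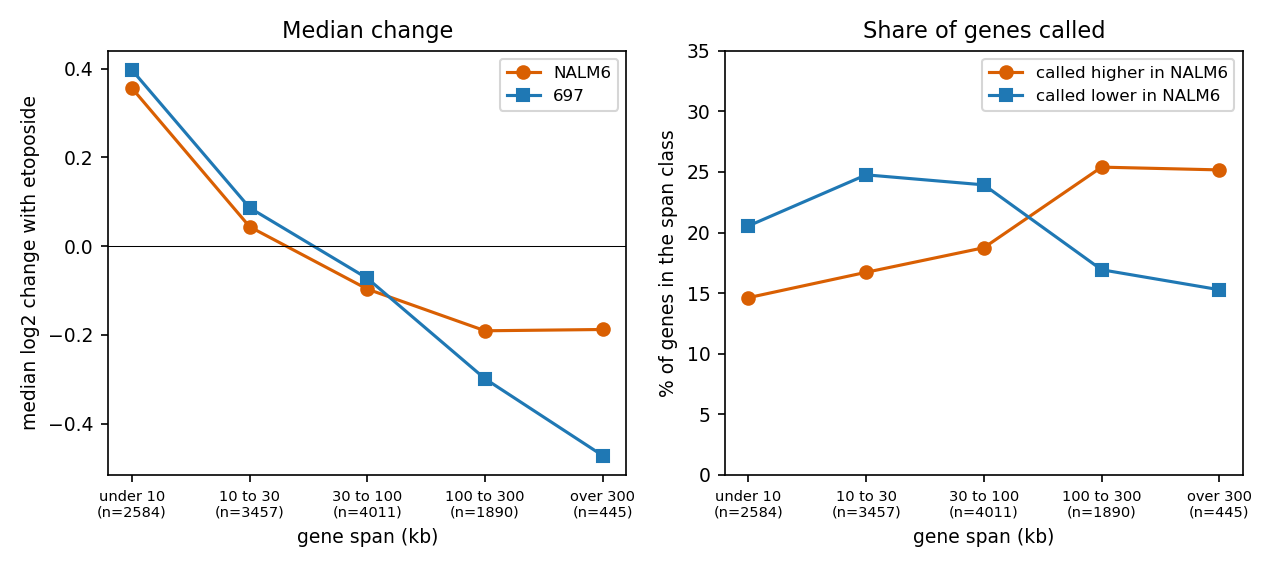
Left, median log2 change with etoposide in NALM6 and 697 by gene span class (kb, number of genes in brackets). Right, percent of genes in each class called higher or lower in NALM6, which cross between 30 to 100 kb (18.7 and 23.9%) and 100 to 300 kb (25.4 and 16.9%).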

How the data were processed

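RNA-seq libraries of NALM6 and 697 were made from Trizol-extracted total RNA and a TruSeq kit, as the labels' protocols state. The deposited files hold whole-number read counts for 23368 gene symbols, 1 file per library, made by the authors with htseq-count per the file names. HISAT, HTSeq, DESeq2 and the build hg19 are named in the submitters' processing notes, with versions and strand setting not given in the sources used here, and no line for unassigned reads is listed. The authors' deposited comparison tables were not used here.

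In R 4.3.3, edgeR 4.0.16 filtered genes by filterByExpr (min.count 10), leaving 14000, which were scaled by TMM and fitted with its robust quasi-likelihood test, with 1 coefficient for each of the 4 groups. Contrasts were the difference of the etoposide effect, the effect within each line and the gap between the lines within each pool. Tests were two-sided, adjusted by Benjamini-Hochberg over all genes and called at an adjusted p under 0.05. CPM use the TMM-scaled totals. Counting intervals and floors of 3 counts cover counting error only, since PCR reads without molecular identifiers are not independent. SEs and confidence intervals of log2 changes and differences were instead derived from the test statistic, which reflects the spread among libraries. They are unreliable where a group has few reads. For CD69, without reads in 697 controls, the difference had an SE of 0.0146, against 0.651 for the change within 697. The test was checked on simulated data.

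Named genes were the 12 highest and 12 lowest called differences with average log2 CPM above or at 1, at least 1 CPM in a group of each line and library pairs that did not overlap, the 8 per direction with the largest smaller change among genes called in opposite directions, up to 4 per line and direction under 0.1 CPM in the other line, up to 4 per gene list with the smallest p, 5 per direction with matching large changes, and CDKN1A, MDM2, MYC, TOP2A, TOP2B and RAG1. A few genes that these rules name are not reported here. Further members of the lists are named in the text and were chosen after their values were seen. The comparison, the lists and the rules were chosen with earlier results of these data known. Alternatives were other scalings, filters and fits (DESeq2 1.42.0, voom of limma 3.58.1, all 34 libraries), thinned counts, replicate blocks and leaving out each library. Promoters are from RefSeq on GRCh38.p14 and gene spans from GENCODE v29, while the counts were made on hg19, so both were matched by symbol alone.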

Additional observations from a re-analysis of the deposited data

Results flagged for a closer look

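Etoposide changed 545 genes in opposite directions in NALM6 and 697, counted where the change was called in each line and the difference between the lines was called as well. They stood out because a treatment effect differed between cell lines by a test of the difference itself. Among the 8 genes up in NALM6 and down in 697 with the largest smaller change, the log2 difference was NAV2 3.35, KCNJ11 3.12, BMF 3.66, NID2 3.64, EBF3 3.18, DOCK10 2.77 and CAMK2D 2.75. Among the 8 genes down in NALM6 and up in 697 it was EDA -6.70, IRF8 -3.35, TUBA4A -3.56, CDKN1C -2.88, RASD1 -2.80, MOB3B -3.48 and SPARC -2.19. NAV2 and KCNJ11 rested on fewer reads than the others of their set, with 39 and 24 reads in 697 after etoposide, and CDKN1C had 32 reads in treated NALM6. In the 697 controls MOB3B had 27 reads and TUBA4A 32. EDA had 3 there.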

How the results depend on the processing

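Over 24 alternatives the number of genes with a called difference between the lines lay between 4798 and 5617, within 1.5 times the 5506 reported. Leaving out each library in turn gave 4926 to 5329 of them, 1253 to 1326 differing at least 2-fold, 482 to 556 in opposite directions, 10165 to 11039 changed in NALM6, 9918 to 10608 changed in 697, 8838 to 9773 differing in the control pool and 8985 to 9948 in the etoposide pool. DESeq2 called 5250, voom 5617, the fit of all 34 libraries 5309 and counts thinned to the smallest library 5016. Of 143 named genes 127 kept their call, or its absence, in every alternative that tested them. The sign was compared for called genes alone, and none of those reversed. The other 16 changed call, chiefly genes with few reads in 1 line. List medians changed sign in 6 alternatives for FOXO-linked genes, 4 for MHC, 3 for integrated stress response, 2 for NF-kB and 1 each for p53 targets and ribosome biogenesis. The median difference over 300 kb was 0.10, and 0.17 with at least 1 CPM in each line.

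Deviations of control and etoposide libraries with the same title number correlated at -0.15, -0.16 and -0.10 in NALM6 and 0.01 and -0.03 in 697. By file name numbers the 697 values were 0.03 and 0.05. Deviations from means of 3 or 2 libraries are tied to each other, so these values cannot settle whether replicates were paired. A replicate block by title numbers over all groups gave 5121 calls, within each line 4798, and by the numbers in the file names 4874. The last 2 blocks gave no plain gap between the lines within a pool, which was therefore left out for them. Few reads limit genes near silent in 1 line, and only 2 etoposide libraries of 697 limit its spread.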
